A study of Mus musculus with 3 samples.

Results

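The cell cycle and mitosis genes are 54 mouse genes that carry a cell from G1 through DNA replication into and out of mitosis: the cyclins and their kinases, the CDK inhibitors and CDC25 phosphatases, the E2F and Rb proteins, replication factors, mitotic kinases and checkpoint proteins, spindle and centromere proteins, and chromosome structure proteins. They were chosen by gene symbol. Each of the 54 symbols matched a single gene among the 21951 protein-coding genes of GENCODE release M21 on the mouse genome build GRCm38. A predicted N6-methyladenosine (m6A) site was counted for a gene when it lay inside the span of the gene on the same strand. By this rule 35 of the 54 genes held at least 1 site and 19 held none, and the 35 genes together held 125 of the 19301 sites of the deposited list, or 0.648%.

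The samples are 3 biological replicates of RAW 264.7, an untreated mouse macrophage cell line derived from a tumour induced by a murine leukaemia virus. The series text calls the line human, whereas the organism label says mouse, and all 19301 sites fell on an A of the mouse genome. In miCLIP2, poly(A)+ RNA is fragmented and crosslinked with UV light to an antibody against m6A, here a rabbit antibody, and the crosslinks are read as truncated or C-to-T converted cDNAs. A classifier called m6Aboost then scores each peak on an A, and the authors deposited the A with a score above 0.5 as 1 list for all replicates. The list has no read counts and no value per replicate, so the depth behind a site is unknown, no comparison between conditions or replicates could be made, and the text gives counts and shares with no test. The score describes the call of the classifier and is not a level of methylation. RNA abundance is not part of the list, and a gene without a site can be a gene without enough RNA. Of 10 macrophage genes 6 held a site (Csf1r, Ptprc, Spi1, Cd14, Lyz2 and Fcgr1, with 39 sites in all), whereas Adgre1, Cd68, Itgam and Mertk held none. No site lay in the 5 T cell, 4 B cell, 4 fibroblast, 4 epithelial and 3 pluripotent cell genes looked up in the same way.

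The methyl group is added to nascent pre-mRNA by a complex around the METTL3 and METTL14 proteins, mostly at the A of the motif DRACH, in which D is A, G or T, R is A or G and H is A, C or T. In mammalian mRNA the mark is known to concentrate around stop codons, in 3' UTRs and in long internal exons, and cytoplasmic YTHDF proteins that bind it promote mRNA decay. Cell cycle mRNAs belong to the transcripts whose amounts must rise and fall within a single division, and several of their proteins are limiting for passage into S phase or mitosis.

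The highest-scoring site of each of 8 roles is shown here to introduce the sequence that was called. Each window covers 21 nt of GRCm38 centred on the site, 5' to 3' on the strand of the gene, and the capitals mark the 5 nt centred on the called A.
Cdt1, 3' UTR, chr8:122572957-122572977, + strand: cagaccttGGACTttcctgat
Top2a, 3' UTR, chr11:98993144-98993164, - strand: aggaggcaGGACTgctcacgg
Cenpf, CDS, chr1:189652652-189652672, - strand: tcaagtacAAACTcttgaact
Cdc25a, 3' UTR, chr9:109892881-109892901, + strand: aaagtcaaGGACTgagatgct
Aurka, 3' UTR, chr2:172356395-172356415, - strand: atttgcatAGACTttgacttt
Ccnd1, 3' UTR, chr7:144930110-144930130, - strand: aaggccaaAGACTggtggtgg
E2f1, CDS, chr2:154560709-154560729, - strand: tttgactgTGACTttggggac
Ccnb2, CDS, chr9:70407958-70407978, - strand: cctcagctGAACTccaaaatc
The scores of these sites were 0.963 in Cdt1, 0.961 in Top2a, 0.945 in Cenpf, 0.934 in Cdc25a, 0.925 in Aurka, 0.912 in Ccnd1, 0.903 in E2f1 and 0.674 in Ccnb2. All of them are DRACH motifs that end in T, and Ccnb2 is the only scored gene of its role.

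Most of the sites lay in a few genes. The share of genes with at least 1 site was 64.8% of the 54 (95% Wilson interval 51.5% to 76.2%), beside 23.1% of all protein-coding genes. At least 5 sites were held by 10 of the 54 genes, or 18.5% (10.4% to 30.8%), beside 6.98% of all protein-coding genes, and at least 10 sites by 3 genes, or 5.56% (1.91% to 15.1%), beside 1.71%. The genes were chosen with earlier results of these data known and their RNA amounts were not compared, so these shares describe the lists only. The 10 genes with most sites were Cenpf with 13, Numa1 with 12, Incenp with 11, Ccnd1 with 8, Ckap5, Aurkb and Cenpe with 6 each, and Cdt1, Cdc25a and Espl1 with 5 each. They held 77 of the 125 sites, and Cenpf, Numa1 and Incenp alone held 36. A single site was found in 12 of the 35 genes with a site, or 34.3% (20.8% to 50.8%). Over all protein-coding genes with a site this share was 25.9%. The median was 2 sites per gene with a site, beside 3 over the 5080 protein-coding genes with a site. Over the 54 genes Spearman's rho between sites and DRACH A of the spliced transcript was 0.00116, a description in which all points come from the same list.

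**Figure D1:**
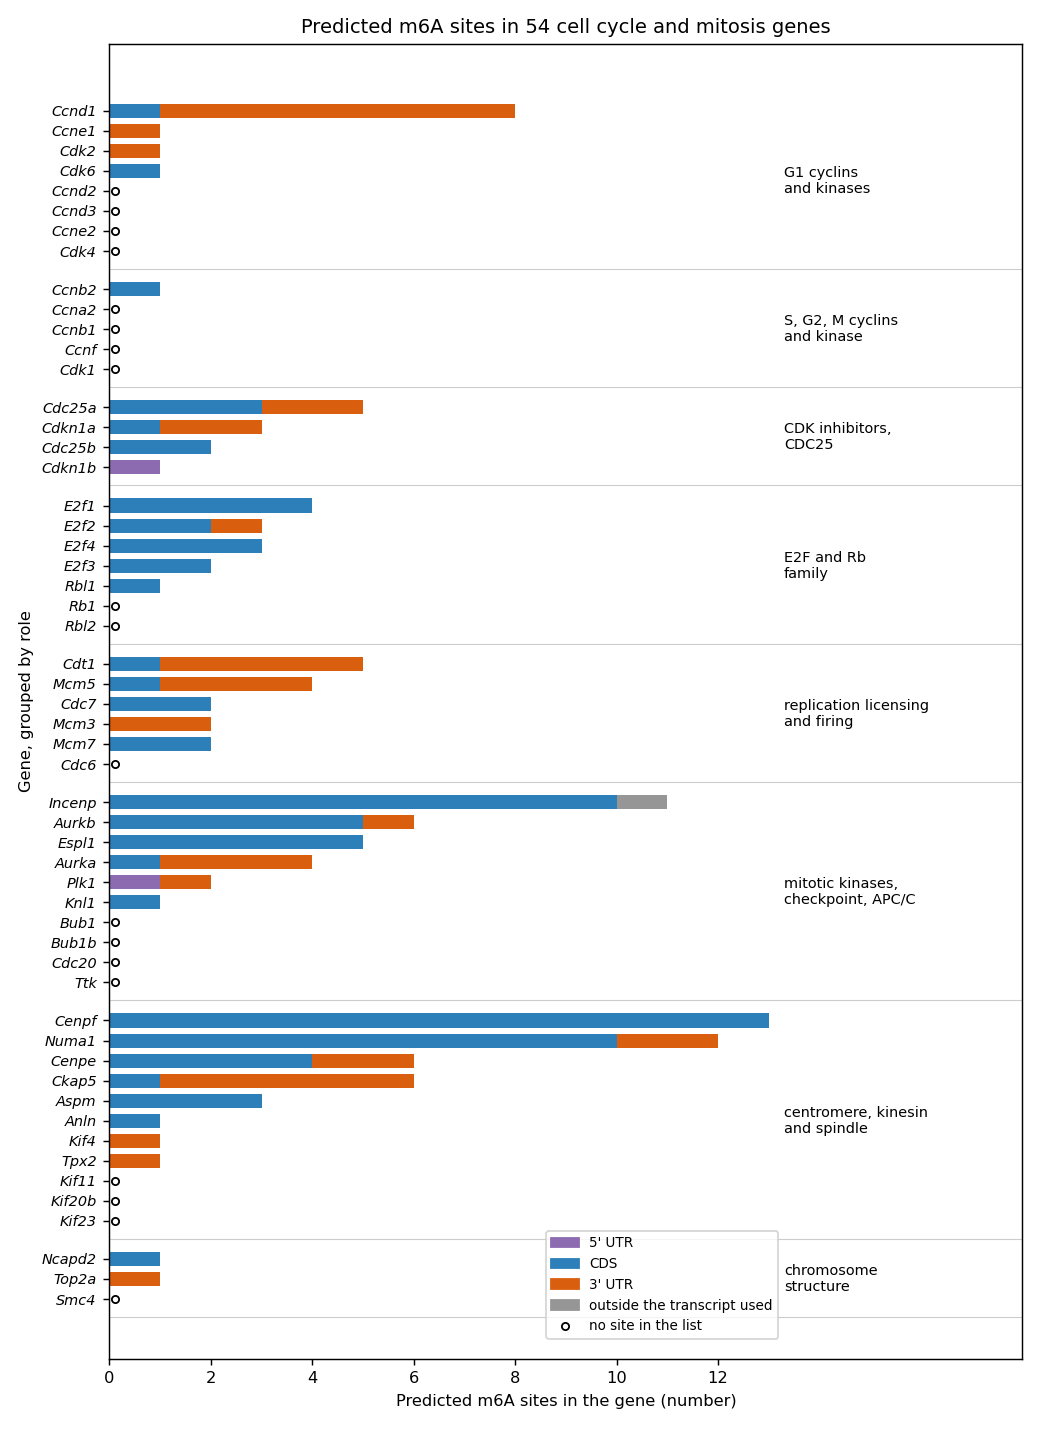
Number of predicted m6A sites (horizontal axis) in each of the 54 genes (vertical axis), grouped by role and coloured by transcript region, with open circles for genes without a site. Cenpf, Numa1 and Incenp reach 13, 12 and 11 sites, whereas 19 genes have none.

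Regions were read on the transcript of each gene with the longest coding sequence. Of the 124 sites in exons of these transcripts, 82 lay in the coding sequence (CDS), or 66.1% (95% Wilson interval 57.4% to 73.9%), and 40 in the 3' UTR, or 32.3% (24.7% to 40.9%). Over all protein-coding genes the CDS held 53.0% and the 3' UTR 44.7% of 18835 exonic sites. A site inside several overlapping genes was counted once for each of them. All values over protein-coding genes therefore rest on 20035 pairs of gene and site, more than the 19301 sites of the list. A 5' UTR held 2 of the 125 sites, in Cdkn1b and Plk1, or 1.6% (0.44% to 5.65%), beside 2.13% over all protein-coding genes. No site lay in an intron, beside 3.56% over all protein-coding genes. The remaining site lay in Incenp outside the transcript used. Internal exons held 58 of the 124 sites, or 46.8% (38.2% to 55.5%), beside 26.9% over all protein-coding genes, and last exons held 62, or 50% (41.3% to 58.7%), beside 65.3%. These shares rested in part on Cenpf, Numa1 and Incenp. Without these 3 genes the CDS held 49 of 89 exonic sites, or 55.1% (44.7% to 65.0%), the 3' UTR 42.7% (32.9% to 53.1%) and internal exons 28 of 89, or 31.5% (22.8% to 41.7%), all near the values of all protein-coding genes. Classifier input includes the transcript region and the sequence around the A, so region and motif shares describe the call as well as the RNA. The intervals cover counting error only, and sites of 1 gene are not replicates.

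The G1 cyclins and their kinases showed a contrast between close relatives. D-type cyclins activate CDK4 and CDK6, which phosphorylate Rb in G1, and cyclin E with CDK2 completes this step at the entry to S phase. Of 8 genes 4 held a site, beside 23.1% of all protein-coding genes, the share against which the count of each role below is also to be read. They held 11 sites in all, and 8 of the 11 lay in Ccnd1. The Ccnd1 gene for cyclin D1 lies at chr7:144929931-144939925 on the - strand, and all 8 sites were in its last exon of 2841 nt. Its windows are shown because they run from the end of the CDS to far into the 3' UTR, and because no site was listed for the cyclins D2 and D3.
Ccnd1, -5 nt: cgagatgtGGACAtctgaggg
Ccnd1, 487 nt: tgagaaatGTACTctgctttg
Ccnd1, 1095 nt: agaagagaGAACTctgttctc
Ccnd1, 1456 nt: aaccacaaAGACAgagatttg
Ccnd1, 1516 nt: agccatccAAACTgaggaaaa
Ccnd1, 1534 nt: aaattaggGGACTccaaaaga
Ccnd1, 2319 nt: taatgtaaAGACTctgccttt
Ccnd1, 2489 nt: aaggccaaAGACTggtggtgg
Distances are counted on the spliced transcript from the first base of the stop codon, so that positions in the CDS are negative. In this order the scores were 0.737, 0.661, 0.749, 0.640, 0.535, 0.733, 0.694 and 0.912. The highest score thus belonged to the site farthest from the stop codon, and the site at 487 nt had no DRACH motif, since its motif has T before the A. The listed DRACH sites were 10.6% of the 66 DRACH A of the Ccnd1 transcript. Ccnd2 had more of them, 134 DRACH A and a 3' UTR of 5173 nt, and Ccnd3 had 27, and neither held a site. The Ccnd3 transcript with the longest CDS had the weak support level 5. Ccne1, the gene of cyclin E1, had a site of score 0.576 at 27 nt in its 3' UTR, whereas Ccne2 (cyclin E2), with 78 DRACH A, had none. Cdk2 had a site of 0.753 at 58 nt in the 3' UTR. Cdk6 had a site of 0.862 at -47 nt, the only site among 216 DRACH A on a transcript of 11525 nt with a 3' UTR of 10217 nt, and Cdk4, with 44 DRACH A, had none.

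Of the S, G2 and M cyclins and their kinase, 1 of 5 genes held a site, a share close to the 23.1% of all protein-coding genes. Apart from Ccnf, these genes drive S phase progression and mitotic entry, with cyclin B and CDK1 as the kinase that starts mitosis. Ccnb2 (cyclin B2) had a site of score 0.674 in its last exon, at -47 nt from the stop codon. No site was listed for Ccna2 (cyclin A2, 65 DRACH A), Ccnb1 (cyclin B1, 56), Ccnf (cyclin F, the substrate receptor of an SCF ubiquitin ligase, 72) or Cdk1 (105). Ccnb2 had 35 DRACH A.

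The CDK inhibitors and CDC25 phosphatases all held a site, 11 in 4 genes, beside 23.1% of all protein-coding genes with a site. Cdc25a encodes a phosphatase that removes inhibitory phosphates from CDK2 and CDK1. Its 5 sites (gene at chr9:109875579-109893895, + strand) were split between both ends of the transcript: in the first exon the sites at -1537 nt and -1429 nt scored 0.535 and 0.643, and in the last exon those at -20 nt, 209 nt and 674 nt scored 0.604, 0.925 and 0.934. The called A of the site at -1537 nt lies close after the start codon, within the window gcgccatgGAACTgggcccgg, and the site at -20 nt was not a DRACH motif. Thus the 2 sites in the 3' UTR scored highest. Cdc25b, which acts at the start of mitosis, had sites of 0.717 and 0.535 at -74 nt and -60 nt, both in its last exon. Cdkn1a encodes p21, the CDK inhibitor induced by p53, and had 3 sites with scores of 0.863 in the CDS at -404 nt and of 0.768 and 0.839 in the 3' UTR at 460 nt and 1170 nt, none within 200 nt of the stop codon. Cdkn1b (p27, the inhibitor that holds cells in quiescence) had its only site, of score 0.595, in the 5' UTR, although 81 DRACH A were spread over its transcript with a 3' UTR of 3439 nt.

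Of the 7 E2F and Rb family genes 5 held a site (all protein-coding genes, 23.1%), and the E2F genes carried nearly all of their sites in the coding sequence. E2F1, E2F2 and E2F3 are the activating transcription factors of S phase genes, and their C-terminal ends, encoded in the last coding exon, hold the transactivation domain that Rb binds. E2F4 acts mostly as a repressor together with the Rb relatives p107 and p130. All 8 CDS sites of E2f1, E2f2 and E2f3 lay in the last exon within 200 nt of the stop codon, and the stretches that hold them are printed with the sites in capitals.
E2f1, 4 sites, chr2:154560709-154560897, - strand: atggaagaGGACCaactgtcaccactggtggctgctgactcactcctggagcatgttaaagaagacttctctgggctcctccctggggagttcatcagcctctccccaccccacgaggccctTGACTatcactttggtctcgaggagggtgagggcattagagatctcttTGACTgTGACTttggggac
E2f2, 2 sites, chr4:136192866-136192956, + strand: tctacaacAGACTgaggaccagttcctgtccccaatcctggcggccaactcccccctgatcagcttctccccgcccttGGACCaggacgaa
E2f3, 2 sites, chr13:29909993-29910040, - strand: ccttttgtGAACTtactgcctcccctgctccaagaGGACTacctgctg
In E2f1 the sites at -197 nt, -83 nt, -35 nt and -29 nt scored 0.554, 0.675, 0.850 and 0.903, so that the scores were higher closer to the stop codon. The last 3 of these share the 5 nt TGACT, and the last 2 lie 6 nt apart, a distance at which the signal of neighbouring sites may overlap, which was not tested. E2f2 scored 0.856 at -159 nt and 0.617 at -89 nt, and had a further site of 0.829 in its 3' UTR at 222 nt. E2f3 scored 0.857 at -125 nt and 0.767 at -98 nt. E2f4 differed in place: its 3 sites, with scores of 0.519, 0.610 and 0.882, lay in internal exons of 44 nt and 213 nt at -810 nt, -402 nt and -344 nt, and none in the last exon. Of the Rb family, Rbl1 (p107) had a site of 0.530 in the CDS at -86 nt, whereas Rb1 and Rbl2 (p130), with 91 and 115 DRACH A, had none.

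Replication licensing and firing genes held 15 sites in 5 of 6 genes (all protein-coding genes, 23.1%). Licensing loads the MCM helicase onto origins with the help of CDC6 and CDT1, and the kinase CDC7 later fires them. Cdt1 had 5 sites, with scores of 0.651 in the CDS at -185 nt and of 0.511, 0.901, 0.692 and 0.963 in the 3' UTR at 127 nt, 167 nt, 308 nt and 315 nt. The site of 0.963, the highest score among the 125, lay 7 nt from its neighbour. The site at 127 nt was the only called A of the 54 genes that is not followed by C. All 5 Cdt1 sites also lie in the overlapping annotated gene Gm20388 on the same strand and cannot be told apart from it, and without them 34 genes and 120 sites remained. Mcm5, a helicase subunit, had a site of 0.507 in the CDS, the lowest score among the 125, and sites of 0.810, 0.807 and 0.911 in the 3' UTR at 100 nt, 138 nt and 180 nt, of which the middle one was not a DRACH motif. In Mcm3 (also a helicase subunit) sites of 0.849 and 0.792 lay in the 3' UTR at 99 nt and 122 nt. Mcm7 had its sites of 0.747 and 0.548 in an internal exon of 394 nt, and Cdc7 had its sites of 0.793 and 0.604 in the CDS at -143 nt and -116 nt. Cdc6, with 53 DRACH A, had none.

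Mitotic kinases, checkpoint and APC/C genes held 29 sites in 6 of 10 genes (all protein-coding genes, 23.1%). INCENP and Aurora B are partners in the chromosomal passenger complex, which corrects faulty attachments of chromosomes to the spindle, and their genes were the 2 with most sites in this role. The Incenp gene lies at chr19:9872296-9899551 on the - strand, and 8 of its 11 sites lay within 266 nt of a single internal exon of 737 nt. The stretch is shown because it held 9 DRACH A, of which 7 were listed, beside a listed motif that ends in G.
Incenp, 8 sites, chr19:9893505-9893770, - strand: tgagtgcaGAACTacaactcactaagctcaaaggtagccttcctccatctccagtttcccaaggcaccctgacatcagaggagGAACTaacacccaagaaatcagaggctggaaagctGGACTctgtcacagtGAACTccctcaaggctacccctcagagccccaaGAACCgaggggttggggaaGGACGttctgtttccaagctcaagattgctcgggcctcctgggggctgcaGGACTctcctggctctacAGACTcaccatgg
From 5' to 3' these sites scored 0.644, 0.826, 0.875, 0.816, 0.870, 0.800, 0.850 and 0.824, so that all but the first scored between 0.800 and 0.875. Over the whole exon 7 of 13 DRACH A were listed, or 53.8% (95% Wilson interval 29.1% to 76.8%). The other Incenp sites scored 0.846 in an internal exon of 79 nt, 0.713 in the last exon at -44 nt, and 0.622 outside the transcript used. That transcript has no annotated UTR, and on the longest spliced Incenp transcript this last site is at 3 nt, the first base of the 3' UTR.

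In Aurkb, the gene of Aurora B kinase (chr11:69045647-69051664, + strand), sites lay where few were found in other genes. Its 5 CDS sites were all in internal exons of at most 200 nt, between 8 nt and 66 nt from an exon junction.
Aurkb, exon 5: tctacaagGAACTgcagaaga
Aurkb, exon 5: tgagcagcGGACTgccacggt
Aurkb, exon 6: tcatggagGAACTgtcagatg
Aurkb, exon 6: tgcagggaGAACTgaagattg
Aurkb, exon 7: tctgctatGAACTgatggtgg
Aurkb, 3' UTR: ggaacctaGAACTcaattcta
The windows are shown because 5 of the 6 share GAACT. They are genomic, so the window 8 nt from a junction ends with bases of the intron. Exons 5, 6 and 7 have 139 nt, 149 nt and 175 nt, and the CDS sites scored 0.838, 0.735, 0.714, 0.831 and 0.853, whereas the site in the 3' UTR at 280 nt scored 0.570. No coding transcript of Aurkb in the annotation has a longer exon at these sites, but transcripts without a CDS do, with exons of 471 nt, 345 nt and 436 nt, and which transcripts gave the signal was not tested. The listed DRACH sites were 14% of the 43 DRACH A of the transcript. Aurka, the gene of Aurora A kinase of the spindle poles, showed the more usual placement, with all 4 sites in the last exon and scores of 0.783 at -127 nt, 0.640 at 40 nt, 0.912 at 66 nt and 0.925 at 393 nt.

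Espl1 encodes separase, the protease that cuts cohesin at anaphase, and had 5 CDS sites (gene at chr15:102296266-102324357, + strand). Of these, 3 lay in an internal exon of 1056 nt, with scores of 0.555, 0.749 and 0.611, and the others scored 0.716 in an exon of 373 nt and 0.535 in an exon of 123 nt. Plk1, the polo-like kinase of mitotic entry and centrosome maturation, had a site of 0.604 in the 5' UTR and of 0.863 at 18 nt in the 3' UTR. Knl1, a scaffold of the outer kinetochore, had 206 DRACH A and a single site, of score 0.804, in its internal exon of 4497 nt. No site was listed for Bub1, Bub1b and Ttk, which encode kinases and a pseudokinase of the spindle assembly checkpoint, or for Cdc20, the activator of the anaphase-promoting complex. Their transcripts had 79, 65, 70 and 31 DRACH A.

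Centromere, kinesin and spindle genes held 43 sites in 8 of 11 genes (all protein-coding genes, 23.1%), the most sites of any role. Cenpf encodes a very large coiled-coil protein of the kinetochore corona, and its 13 sites (gene at chr1:189640606-189688086, - strand) were all in the CDS. Of these, 11 lay in 3 long internal exons: 3 in an exon of 3428 nt, 6 in an exon of 2832 nt and 2 in an exon of 477 nt. In the exon of 3428 nt the sites at -6732 nt, -5189 nt and -4347 nt scored 0.537, 0.623 and 0.882. In the exon of 2832 nt those at -2906 nt, -2234 nt, -2191 nt, -1597 nt, -1572 nt and -1317 nt scored 0.531, 0.733, 0.714, 0.718, 0.945 and 0.614, and the window of the highest was printed above. In the exon of 477 nt those at -489 nt and -461 nt scored 0.759 and 0.620. The median score of Cenpf was 0.623, and high and low scores stood in the same exon. The remaining 2, at -107 nt and -14 nt in the last exon, scored 0.620 and 0.555, and the 3' UTR of 1993 nt held none. Numa1 encodes NuMA, which focuses spindle poles, and 10 of its 12 sites lay in an internal exon of 3360 nt (gene at chr7:101934111-102014964, + strand). These 10, at -4977 nt, -4779 nt, -4479 nt, -4406 nt, -3957 nt, -3382 nt, -3138 nt, -2693 nt, -2366 nt and -1943 nt, scored 0.704, 0.627, 0.674, 0.801, 0.747, 0.720, 0.851, 0.546, 0.865 and 0.710. They were spread over the exon, with a smallest gap of 73 nt. The sites in its 3' UTR at 169 nt and 364 nt scored 0.889 and 0.619.

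Cenpe encodes the kinesin CENP-E, which moves chromosomes to the metaphase plate, and had 6 sites (chr3:135212537-135273611, + strand). On the transcript used, which has the weak support level 5, its longest internal exon has 315 nt. The 4 CDS sites lay in exons of 279 nt and 288 nt and scored 0.765, 0.653, 0.659 and 0.768, and 3 of them shared the stretch below.
Cenpe, 3 sites, chr3:135247385-135247509, + strand: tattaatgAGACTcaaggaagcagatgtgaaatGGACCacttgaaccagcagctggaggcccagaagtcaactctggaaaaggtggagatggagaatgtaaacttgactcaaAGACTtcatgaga
The other Cenpe sites, at 177 nt and 184 nt in the 3' UTR, scored 0.564 and 0.647, and the second was not a DRACH motif. Ckap5 encodes ch-TOG, a microtubule polymerase, and held all of its 6 sites (chr2:91526762-91620664, + strand) within 200 nt of the stop codon, in a span of 223 nt at the end of a spliced transcript of 6665 nt with 151 DRACH A. They are shown to let their spacing be read, which is 4 nt at its smallest.
Ckap5, -28 nt: tgaaaaagAGACTggagagaa
Ckap5, 91 nt: ttgtacacAAACTggttgtat
Ckap5, 109 nt: tatgtatcAGACTgcagatgg
Ckap5, 166 nt: cttctagaAGACTgactgtgg
Ckap5, 170 nt: tagaagacTGACTgtggatta
Ckap5, 194 nt: tagtgtacAGACTttaaacag
These sites scored 0.626, 0.814, 0.847, 0.760, 0.904 and 0.685. All of them end in ACT, and the sites at 166 nt and 170 nt overlap in sequence.

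Aspm encodes a protein of spindle poles, and its 3 sites, scored 0.660, 0.581 and 0.862, all lay in internal exons of 1408 nt and 3795 nt. Tpx2, the activator of Aurora A on the spindle, had a site of 0.896 at 151 nt in the 3' UTR of a transcript with the weak support level 5. Kif4, a chromosome-bound kinesin, had a site of 0.623 at 321 nt in the 3' UTR, and Anln (anillin, of the contractile ring) a site of 0.614 in the CDS. Kif11, Kif23 and Kif20b, the kinesins of spindle pole separation and of the central spindle, had 128, 89 and 136 DRACH A and no site. Kif20b was without a site although it has an internal exon of 1234 nt.

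Chromosome structure genes held 2 sites in 2 of 3 genes (all protein-coding genes, 23.1%). Top2a, the topoisomerase that untangles sister chromatids, had a site of 0.961 at 302 nt in the 3' UTR, the second highest score among the 125 and the only site among 123 DRACH A. Ncapd2 (a condensin subunit) had a site of 0.636 in the CDS, and Smc4 (the condensin ATPase, with 105 DRACH A) had none.

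**Figure D2:**
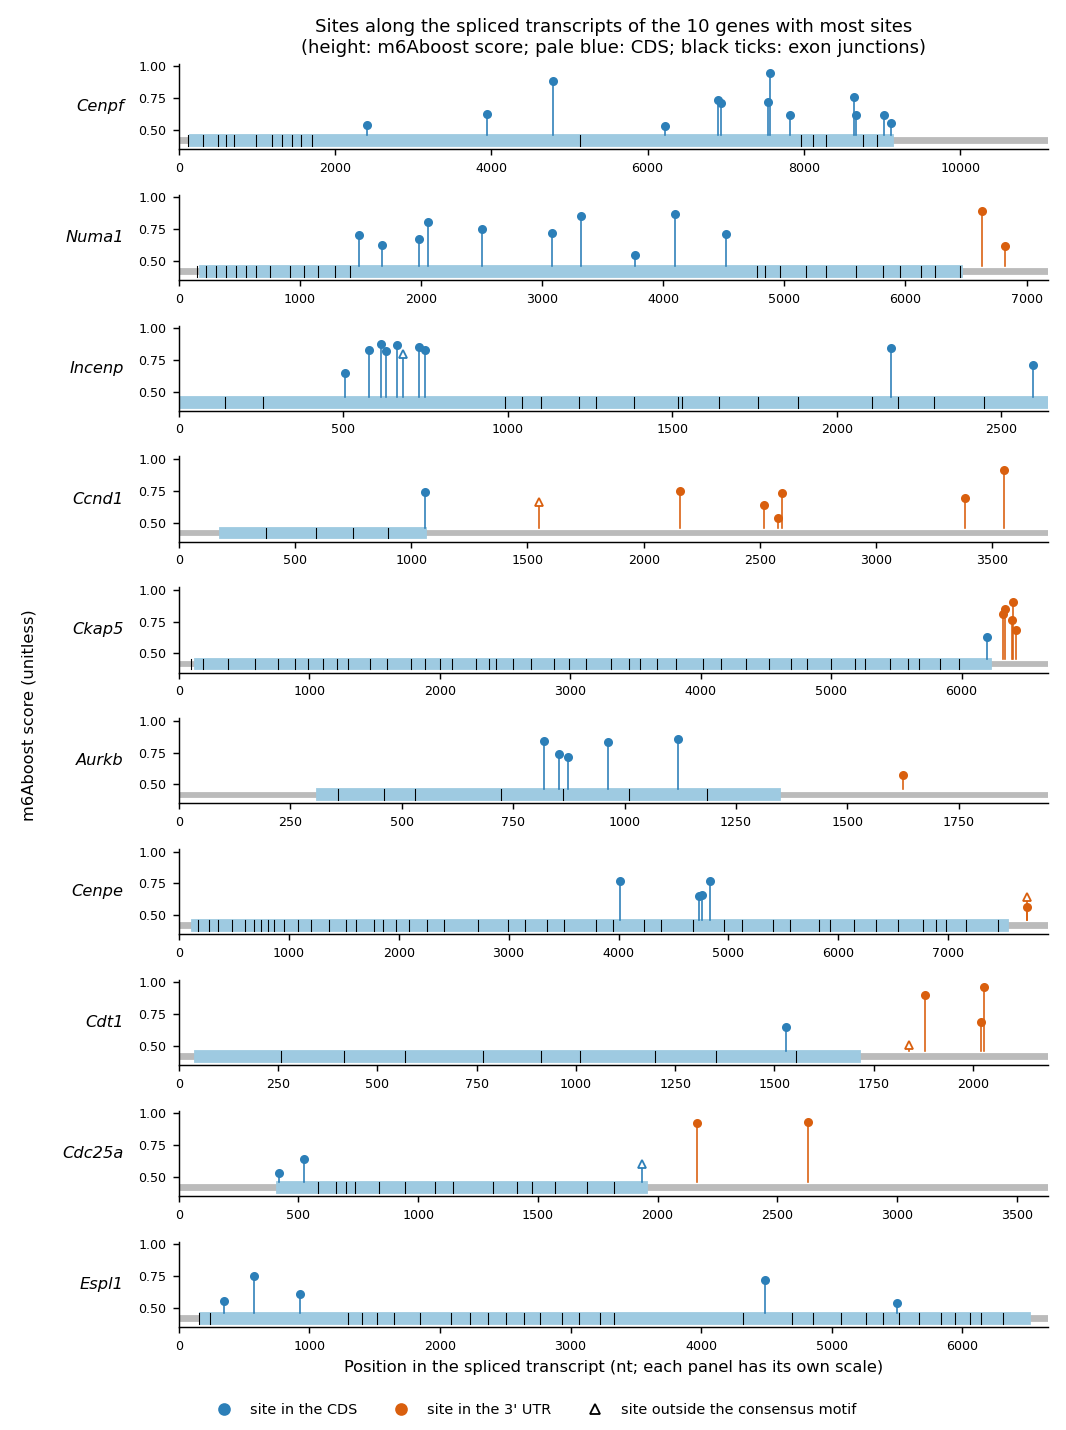
Position of each site in the spliced transcript (horizontal axis, nt) and its m6Aboost score (vertical axis) for the 10 genes with most sites, with the CDS in pale blue, exon junctions as black ticks and open triangles for sites outside the DRACH consensus. Sites of Cenpf, Numa1 and Incenp gather in exons without junctions for long distances, those of Ckap5 lie within 200 nt of the stop codon, and the 5 CDS sites of Aurkb lie in exons of 139 nt to 175 nt. The Incenp site outside the transcript used is not drawn.

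The share of DRACH A that were listed differed by exon length. A DRACH A of the spliced transcript was counted as listed when it was in the site list, over the 35 genes with a site. In internal CDS exons of up to 200 nt 9 of 1291 DRACH A were listed, or 0.697% (95% Wilson interval 0.367% to 1.32%). The share was 3.70% (2.13% to 6.36%) in those over 200 nt and up to 400 nt and 7% (5.10% to 9.54%) in those over 400 nt. Over all protein-coding genes with a site the shares were 0.607%, 2.39% and 10.4%, the same order. The interval for the longest exons lay below the value of all genes. Cenpf, Numa1 and Incenp held 29 of the 37 CDS sites in internal exons over 400 nt. Among such exons of the other genes with a site the share was 20% in Espl1 (1056 nt) and 12.5% in Cdkn1a. It was 3.57% in each Aspm exon, 0.775% in Knl1 and 0% in Cdk6 and a second Espl1 exon. Whether the order holds without Cenpf, Numa1 and Incenp was not tested. Of the 9 sites in short internal exons 5 were those of Aurkb, and the others were in E2f4, Espl1, Incenp and Mcm5. The Espl1 site, like those of Aurkb, lies in a longer exon on another annotated transcript, of 1463 nt. In last exons 14.2% (9.47% to 20.7%) of the DRACH A of the CDS were listed, beside 12.4% over all genes, and in 3' UTRs 4.43% (3.22% to 6.08%), beside 4.99%. Over whole transcripts 118 of 3248 DRACH A, or 3.63% (3.04% to 4.33%), were listed in the 35 genes, beside 4.63% over all protein-coding genes with a site. Without Cenpf, Numa1 and Incenp it was 3.03%.

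**Figure D3:**
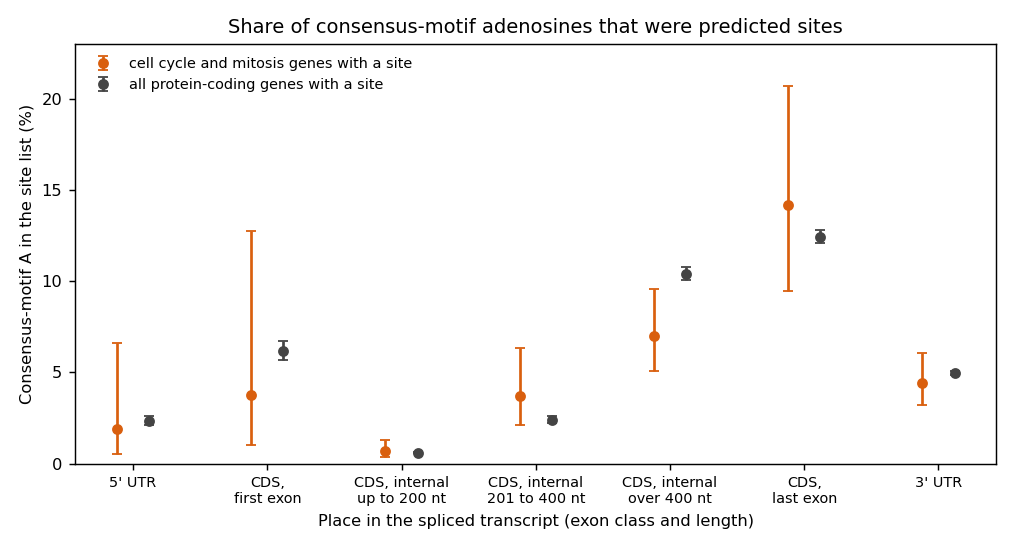
Share of DRACH-consensus A that were in the site list (vertical axis, %) by place in the spliced transcript (horizontal axis) for the 35 genes with a site and for 5080 protein-coding genes with a site, with 95% Wilson intervals as bars. In both lists, among the places shown, the share is lowest in internal CDS exons of up to 200 nt (0.697% and 0.607%) and highest in last CDS exons (14.2% and 12.4%).

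Of the 82 CDS sites 37, or 45.1% (34.8% to 55.9%), lay in internal exons over 400 nt, beside 35.4% over all protein-coding genes. Such exons were present in 9 of the 54 genes, 7 of which had a site there, and Cenpf, Numa1 and Incenp held 29 of the 37 sites. The matching count of genes over all protein-coding genes was not made, so the 7 of 9 describe these genes only. Without these 3 genes the share was 8 of 49 CDS sites, or 16.3% (8.51% to 29.0%). The exons differed widely among themselves. In Numa1 10 of 57 DRACH A of the exon of 3360 nt were listed, or 17.5% (9.82% to 29.4%), whereas in Knl1 1 of 129 was listed in the exon of 4497 nt, or 0.775% (0.137% to 4.26%). In the exon of 3428 nt in Cenpf 3.03% (1.04% to 8.53%) of 99 DRACH A were listed, in its exon of 2832 nt 7.14% (3.31% to 14.7%) of 84, and in the exon of 3795 nt in Aspm 3.57% (0.985% to 12.1%) of 56. None of the 26 in Kif20b, the 13 in a second Espl1 exon of 989 nt and the 3 in Cdk6 were listed. The transcripts of Cenpf, Knl1 and Kif20b used here have the weak support level 5. On transcripts of a support level of at most 3 and an annotation level of at most 2 the share was 37.3%, or 25 of 67 CDS sites. Exonic sites fell from 124 to 108 there, since sites without a place on such a transcript dropped out. Some long exons thus held no listed site, and RNA abundance, which the list does not give, may differ between these genes. What sets these exons apart was not tested.

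Sites near the stop codon were found in 23 genes, and in 12 of them every site of the gene was there. Some of these 12, such as Ccne1, Cdk2 and Rbl1, held a single site. The matching counts of genes over all protein-coding genes were not made, so the 23 and the 12 describe these genes only. Within 200 nt of the first base of the stop codon lay 44 of the 124 exonic sites, or 35.5% (27.6% to 44.2%), beside 32.3% of 18820 over all protein-coding genes. Without Cenpf, Numa1 and Incenp the share was 44.9%. Of these 44 sites the CDS held 23 and the 3' UTR the other 21. Among the DRACH A of this window 13.2% (9.88% to 17.5%) were listed, beside 12.7% over all genes, with 12.4% (8.35% to 18.1%) on the CDS side and 14.4% (9.31% to 21.6%) on the 3' UTR side, beside 9.48% and 16.3%. The 100 nt before the stop codon held 15 sites and the 100 nt from it onward 7, whereas over all protein-coding genes the order was the other way, with 7.37% and 11.6% of the sites. With so few sites the Wilson intervals of these 2 bins overlapped (7.47% to 19.0% and 2.76% to 11.2%). No site lay on a stop codon. The 3' UTR share was higher among high scores: the 12 sites of at least 0.9, in 9 genes, were in the 3' UTR in 10 cases, and the others were those of E2f1 and Cenpf printed above. The median score was 0.799 for the 40 sites in 3' UTRs and 0.715 for the 82 in the CDS, beside 0.786 and 0.699 over all protein-coding genes. Transcript region is among the inputs of the classifier, so scores by region describe the call as well as the RNA.

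**Figure D4:**
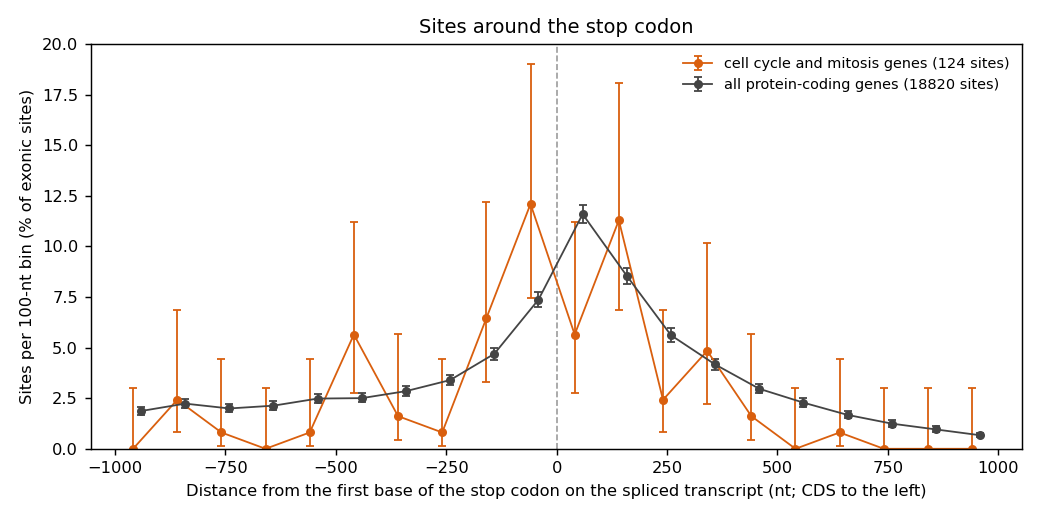
Share of exonic sites per bin of 100 nt (vertical axis, %) against the distance to the first base of the stop codon (horizontal axis, nt) for the cell cycle and mitosis genes and for all protein-coding genes, with 95% Wilson intervals as bars. In the cell cycle and mitosis genes the 100 nt before the stop codon hold 12.1% and the 100 nt from its first base onward hold 5.65%, with overlapping intervals, while over all genes the values are 7.37% and 11.6%.

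Sites lay close to each other in many genes. Of the 124 exonic sites 61, or 49.2% (40.6% to 57.9%), had another within 100 nt on the same transcript, beside 60.1% over all protein-coding genes. Both sites of Cdc25b, E2f3, Cdc7, Mcm3 and Mcm7 lay within 14 nt to 27 nt of each other, whereas in Cdkn1a, Aspm, Espl1 and Cdc25a no site had such a neighbour. Less than 100 nt from an exon junction lay 31 of the 124 sites, or 25% (18.2% to 33.3%), beside 12.7% over all protein-coding genes. As a share of the DRACH A at such positions this was 1.75% (1.23% to 2.47%), beside 1.39% over all genes. Of the CDS sites 41 of 82 were at codon position 2, or 50% (39.4% to 60.6%), beside 48.9% over all genes. In Aurkb 4 of the 5 CDS sites were at codon position 3.

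The motif around the called A was a DRACH in 119 of 125 sites, or 95.2% (89.9% to 97.8%), beside 92.0% over all protein-coding genes. The most frequent 5 nt were AGACT at 25 sites (20%), followed by GGACT with 23 sites (18.4%) and GAACT with 22 sites (17.6%). Over all protein-coding genes the shares of these were 12.3%, 19.2% and 13.1%. The motif GGACA was called at 11 sites (8.80%), beside 13.2% over all genes. The 6 sites without DRACH are given because they show in which base the motif departed from the consensus.
Ccnd1, 3' UTR, score 0.661: tgagaaatGTACTctgctttg
Mcm5, 3' UTR, score 0.807: ctggaaatGTACTttggtctg
Cdc25a, CDS, score 0.604: agagagatGTACAgtcgcctg
Cenpe, 3' UTR, score 0.647: gtgacttaGAACGctggtggc
Incenp, CDS, score 0.800: ttggggaaGGACGttctgttt
Cdt1, 3' UTR, score 0.511: ttgcttccTGAGGctttgggg
The first 3 have T before the A, the next 2 close the motif with G, and the last has no C after the A. Their median score was 0.654, beside 0.733 for the 119 DRACH sites, and over all protein-coding genes the medians were 0.607 and 0.746. Because the sequence around the A is also a classifier input, scores by motif describe the call as well as the RNA. The nearest DRACH site of the same transcript was 7 nt away in Cenpe, 19 nt in Incenp, 38 nt in Mcm5 and 40 nt in Cdt1, but 229 nt in Cdc25a and 492 nt in Ccnd1.

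**Figure D5:**
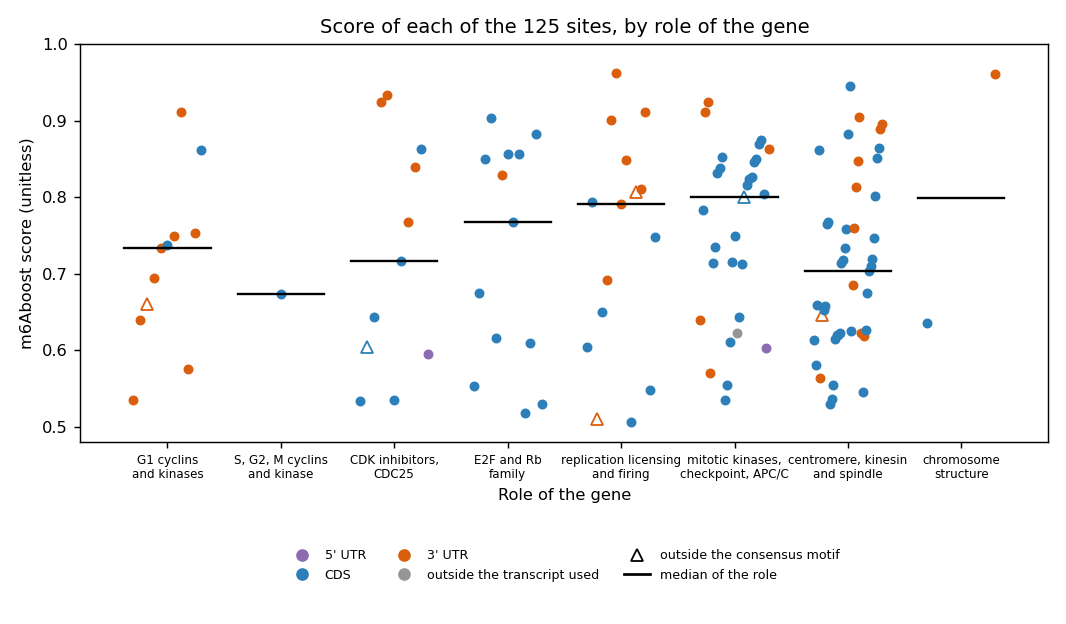
The m6Aboost score (vertical axis) of each of the 125 sites by role of the gene (horizontal axis), coloured by region, with open triangles for the 6 sites outside the DRACH consensus and black lines at the median of each role. The medians lie between 0.674 and 0.800, and the scores of most roles span from near 0.5 to above 0.9.

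The median score of the roles with more than 2 sites lay between 0.704 and 0.800. The medians were 0.733 for the G1 cyclins and their kinases, 0.717 for the CDK inhibitors and CDC25 phosphatases, 0.767 for the E2F and Rb family, 0.792 for replication licensing and firing, 0.800 for mitotic kinases, checkpoint and APC/C, and 0.704 for centromere, kinesin and spindle proteins. The median over the 125 sites was 0.733, beside 0.734 over all protein-coding genes.

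The 19 genes without a site had no fewer motifs at the median. Their transcripts had a median of 78 DRACH A, from 27 in Ccnd3 to 136 in Kif20b, beside a median of 74 in the 35 genes with a site. The median spliced length was 3421 nt in the former and 3740 nt in the latter, and the median 3' UTR was 907 nt and 717 nt long. Over all protein-coding genes those without a site had a median of 48 DRACH A and those with a site 62. By role they were Ccnd2, Ccnd3, Ccne2 and Cdk4, then Ccna2, Ccnb1, Ccnf and Cdk1, Rb1 and Rbl2, Cdc6, the checkpoint genes Bub1, Bub1b and Ttk with Cdc20, the kinesins Kif11, Kif20b and Kif23, and Smc4.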

How the data were processed

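Poly(A)+ RNA of 3 untreated RAW 264.7 replicates was profiled with miCLIP2. Per the submitters' processing notes, STAR 2.7.3a, SAMtools 1.9, UMI-tools 1.0.0 and bedtools 2.27.1 were used on GRCm38. Peaks were called with PureCLIP and kept when present in at least 2 replicates, and peaks at A were classified by m6Aboost from the surrounding sequence, the transcript region, the signal relative to the rest of the gene and the C-to-T conversions. The authors deposited 1 list pooled over replicates, whose only value is the m6Aboost score, with no read depth per sample. Starts were read as 0-based, and positions are printed 1-based.

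Genes and transcripts came from GENCODE M21 (the study names a later release of the same build). Sites were assigned by gene span and strand and placed on the transcript with the longest CDS (ties to the longest spliced one), with the stop codon counted in the CDS. Printed sequences are the RefSeq genome of GRCm38. Shares have 95% Wilson intervals, which cover counting error only. Members and lists were chosen with earlier results of these data known. Full values are given for the 10 genes with most sites, all genes without a site, the highest-scoring site of each role and all sites outside DRACH. Alternatives were a minimum score, merged neighbouring sites, other transcripts, windows and motifs. On simulated data 100% of 4000 sites were placed correctly. Python 3.11.15, NumPy 2.4.6, SciPy 1.17.1 and matplotlib 3.10.9 were used.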

Additional observations from a re-analysis of the deposited data

How the results depend on the processing

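No paired analysis was possible because the samples form a single condition and their sites came merged, and hence no replicate could be left out. A minimum score of 0.9 left 9 genes and 12 sites, with a median of 1 site per gene, a median score of 0.918, 100% DRACH, 83.3% of sites in the 3' UTR, 16.7% in the CDS, 1.37% of DRACH A listed and 0 sites with a neighbour. A minimum score of 0.7 left 72 sites, with 2.57% of DRACH A listed and 38.9% of sites with a neighbour. The DRACH share was 86.4% for RRACH, which does not allow T as the first base, 99.2% for any A followed by C, and 0% with the start read as 1-based. The share near the stop codon was 18.5% within 100 nt and 45.2% within 400 nt, that of CDS sites in long internal exons 59.8% over 200 nt and 31.7% over 1000 nt, and that of sites with a neighbour 39.5% within 50 nt and 58.9% within 200 nt. With the genes without a site added, 2.46% of DRACH A were listed. Chosen after seeing the data, leaving out Cenpf, Numa1 and Incenp gave 42.7% of sites in the 3' UTR, 55.1% in the CDS, 44.9% near the stop codon, 16.3% of CDS sites in long internal exons and 3.03% of DRACH A listed, and of the other cell cycle genes 9 had a site of at least 0.9. The other 45 of 73 settings, among them the longest spliced and the better supported transcripts, moved no share outside its Wilson interval, no count by over 1.5 times and the median score by less than 1 SD. Without read counts the precision of a single site is unknown.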

Other observations

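Cell cycle genes outside the 54, also chosen with earlier results known, were looked up in the same way. Of 82 further genes 45 held a site, or 54.9% (95% Wilson interval 44.1% to 65.2%), beside 23.1% of all protein-coding genes, with 152 sites in all. Sites were found in 7 of 11 genes of G2/M control, 9 of 18 of the spindle and cytokinesis, 4 of 12 of G1/S control, 8 of 15 of condensin and cohesin, 10 of 14 of replication, and 7 of 12 of checkpoint and kinetochore. Among the 150 exonic sites the 3' UTR held 48% (40.2% to 55.9%), the CDS held 47.3% (39.5% to 55.3%), and 94.1% (89.1% to 96.9%) of the 152 were DRACH motifs. Over all protein-coding genes these shares were 44.7%, 53.0% and 92.0%.

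Anapc1, the largest subunit of the anaphase-promoting complex, had 10 sites, 9 of them in the 3' UTR, with a median score of 0.833. Pcnt (pericentrin, a scaffold of the centrosome) also had 10, all in the CDS, with a median score of 0.699. Foxm1, the transcription factor of G2/M genes, had 9, 6 coding and the other 3 in the 3' UTR, with a highest score of 0.908. Fbxw7, the ubiquitin ligase subunit that targets cyclin E, had 9, of which 7 were in the CDS. Cdkn2c encodes p18, an inhibitor of CDK4 and CDK6, and 6 of its 8 sites lay in the 5' UTR, where the 54 genes together held 2.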
